A study of Mus musculus with 16 samples.

Results

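The protein disulfide isomerases and endoplasmic reticulum (ER) oxidases examined here are 10 genes of disulfide bond formation: P4hb, Pdia3, Pdia4, Pdia5, Pdia6, Txndc5, Txndc11, Creld2, Ero1l and Ero1lb. They were chosen by gene symbol from the 25105 genes listed in the deposited expression table, and all 10 were found there. Expression was measured by poly(A) RNA sequencing of dispersed islet cells from Grp78 flox/flox mice, a genotype that every group shared. The comparison covered 4 groups of 4 libraries each: Ad-LacZ, the control adenovirus with vehicle (DMSO); Ad-Cre, an adenovirus carrying Cre recombinase, with vehicle; and each virus together with JNK-IN-8, a pan JNK inhibitor given from the start. The culture lasted 72 hours at 15 mM glucose. Each preparation (F1, M1, M2 and F2, named by sex and number, with a pair of animal numbers in its label) gave 1 library to each group. The donors were adult mice of both sexes. The paper gives a wide age range for its ex vivo islet studies as a whole, and the ages behind each preparation are not stated. A virus added to dispersed islets is not restricted to β cells. In bulk samples of this kind, fewer cells of a type and less RNA per cell cannot be told apart.

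The targeted gene, Hspa5, which encodes GRP78, was higher in every library labelled Ad-Cre than in every Ad-LacZ library. It was at 478, 483, 395 and 396 RPKM (reads per kilobase of gene, scaled to the reads of the library) in the Ad-LacZ libraries of F1, M1, M2 and F2, and at 1107, 1114, 1237 and 1598 RPKM in the libraries labelled Ad-Cre. Because a single value covers all exons of a gene, loss of the floxed exons could not be read from it, and each direction below is that of the libraries labelled Ad-Cre. The steps between low values put the depth at 7720000 to 25500000 reads per library, and about 997 to 86800 reads lay behind each value of the 10 genes. These depths are estimates that rest on gene lengths from an annotation that may differ from that of the authors. The paper states a higher minimum count per sample. The Ad-Cre + JNK inhibitor library of F2 was the shallowest by this estimate. It was the only library whose column name has another prefix and lane code, and what the prefix stands for is not stated. Islet hormone transcripts were abundant, with Ins1 and Ins2 together at 30795 to 79367 RPKM, while the 8 acinar markers summed to 2.04 to 12.3 RPKM over the 16 libraries.

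Secreted proteins such as proinsulin acquire their disulfide bonds in the ER lumen. Isomerases of the PDI family, whose active sites are thioredoxin-like, make the bonds in client proteins and reshuffle wrong ones. The ERO1 oxidases then reoxidise the isomerases and pass the electrons to oxygen, which yields hydrogen peroxide. Mammals have a widely expressed oxidase, ERO1α (Ero1l, now named Ero1a), and ERO1β (Ero1lb, now Ero1b), which is abundant in pancreatic islets. Several isomerases and Creld2 are known targets of the unfolded protein response, the transcriptional answer to misfolded protein in the ER.

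In the Ad-LacZ control libraries the 10 genes covered a wide span of levels, which RPKM allows to be compared between genes because it is a value per gene length. Pdia3, the glycoprotein isomerase that works with the lectins calreticulin and calnexin, had the highest mean, 425 ± 37.8 RPKM (SD, n = 4), and ranked 40 among all genes. P4hb, the classical PDI, followed at 372 ± 35.7 RPKM (SD, n = 4), and the ranges of the pair overlapped. The islet oxidase Ero1lb came next, at 262 ± 50.4 RPKM (SD, n = 4), above Pdia6 at 156 ± 24.5 and Pdia4 at 109 ± 13.5 RPKM (SD, n = 4 each), with no overlap between these neighbours. Creld2, an ER-resident protein with an isomerase-like motif, and Ero1l overlapped at 52.7 ± 3.35 and 50.3 ± 3.29 RPKM (SD, n = 4 each). Txndc5, also known as ERp46, had 41.5 ± 3.58 RPKM, the isomerase Pdia5 24.4 ± 2.21 RPKM and Txndc11, which serves ER-associated degradation, 8.96 ± 1.18 RPKM (SD, n = 4 each). Ero1lb thus stood at 4.51 to 6.09 times the level of Ero1l in the 4 control libraries. In the GENCODE M21 annotation of GRCm38, Ero1lb lies on chromosome 13 (chr13:12565874-12611396, plus strand) and Ero1l on chromosome 14 (chr14:45283087-45318771, minus strand). Pdia4 lies at chr6:47796141-47813430 (minus strand) and Creld2 at chr15:88819646-88826683 (plus strand).

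**Figure D1:**
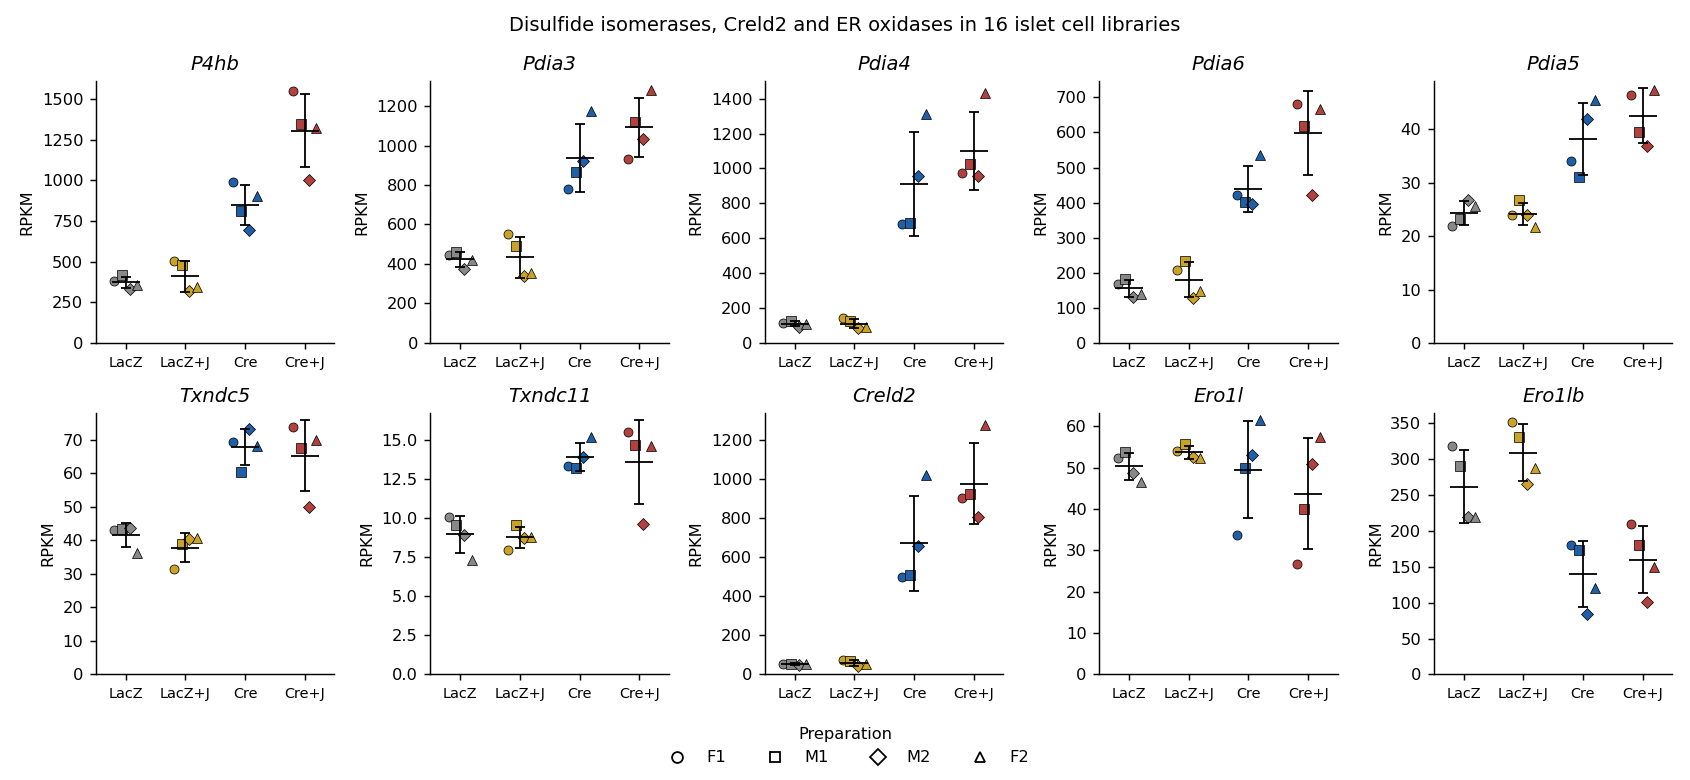
RPKM of each of the 10 genes in the 16 libraries, grouped as Ad-LacZ (LacZ), Ad-LacZ + JNK inhibitor (LacZ+J), Ad-Cre (Cre) and Ad-Cre + JNK inhibitor (Cre+J). Each symbol is 1 library, with its shape giving the preparation; horizontal bars are means and vertical bars SD (n = 4), and 8 genes are higher in every Ad-Cre library than in every Ad-LacZ library.

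The comparison of Ad-Cre with Ad-LacZ asked how the oxidative folding genes stand after 72 hours of Cre. All 7 isomerases and Creld2 rose, and neither oxidase did. A gene was called when limma's Benjamini-Hochberg adjusted p was below 0.05 and the fold change was above 1.5. By this rule 8 of the 10 genes were called higher, against 4.09% of the 11590 genes tested, and 0 were called lower, against 4.33%. For the same 8 genes every Ad-Cre library lay above every Ad-LacZ library, an arrangement found in 10.7% of the genes tested. The median log2 fold change of the 10 was 0.91, beside -0.0040 over the genes tested.

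Pdia4, known as ERp72, changed the most among the isomerases. Its level was 116, 123, 92.0 and 106 RPKM in the Ad-LacZ libraries of F1, M1, M2 and F2, and 680.5, 688, 957 and 1311 RPKM in the Ad-Cre libraries. The groups lay far apart, with M2 and F2 highest among the Ad-Cre libraries although they were lowest among the controls. The fold change was 7.99 (log2 3.00, standard error 0.21, adjusted p = 0.000343). Pdia6, also called P5, was at 168, 184, 131 and 139 RPKM in Ad-LacZ and 423, 403, 397 and 536 RPKM in Ad-Cre. The groups again did not overlap, with a log2 fold change of 1.49 (standard error 0.19, adjusted p = 0.00281).

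P4hb rose by less, from 380.5, 417, 333 and 358 RPKM to 987, 813, 697 and 903 RPKM, a log2 fold change of 1.18 (standard error 0.21, adjusted p = 0.00927). Among the Ad-Cre libraries F1 was highest for P4hb and lowest for Pdia4. Pdia3 went from 444, 462, 375 and 418 RPKM to 778, 868, 920.4 and 1177 RPKM, a log2 fold change of 1.12 (standard error 0.18, adjusted p = 0.00562). The less abundant isomerases rose by 1.5 to 1.62 times. Txndc5 was at 36.2 to 43.6 RPKM in Ad-LacZ and at 60.3 to 73.2 in Ad-Cre, a log2 fold change of 0.69 (adjusted p = 0.00873). Pdia5 was at 22.0 to 26.8 RPKM and then at 31.0 to 45.6, a log2 fold change of 0.61 (adjusted p = 0.00814). Txndc11 was at 7.33 to 10.1 RPKM and then at 13.2 to 15.2, a log2 fold change of 0.59 (adjusted p = 0.0182) whose fold sits just above the threshold.

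Preparation F2 had the largest rise within a preparation for each of the 8 genes but P4hb, and without it 3 of the 10 genes (Creld2, Pdia4 and Pdia6) were called in place of 8. The 8 fold changes kept their direction without any preparation, and without F2 the log2 values ran from 0.49 for Txndc11 to 3.41 for Creld2. Under quantile normalization in place of TMM scaling (trimmed mean of M-values), Pdia5 and Txndc5 stayed higher but fell below the fold threshold, with log2 fold changes of 0.54 and 0.58. Of 6 macrophage markers 2 were also called higher in the Ad-Cre libraries (summed level 78.1 to 219 RPKM against 77.1 to 86.2 in Ad-LacZ), and fibroblast markers summed to 21.8 to 676 against 23.5 to 105 RPKM, with 0 of 4 tested called. With the preparation as a block 4 of the 6 macrophage and 1 of the 4 fibroblast markers were called higher, against 5.57% of the genes tested. These sums were highest in M2 and F2 of Ad-Cre, and their part in the result was not tested. In F1, M1, M2 and F2 the log2 difference was 2.62, 2.51, 3.32 and 3.53 for Pdia4. In the same order it was 1.45, 1.00, 1.02 and 1.25 for P4hb and 3.32, 3.22, 3.69 and 4.10 for Creld2.

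**Figure D2:**
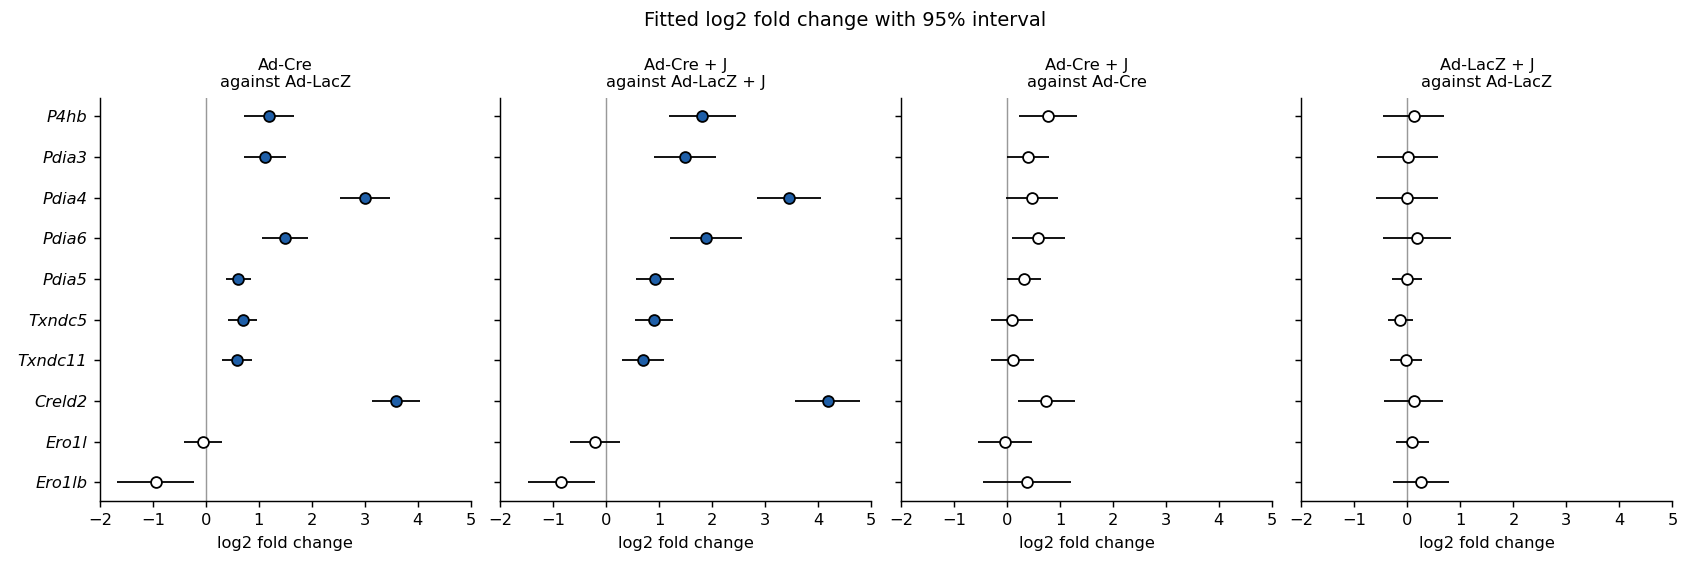
Fitted log2 fold change of the 10 genes in the 4 comparisons (J is the JNK inhibitor), with horizontal lines for the 95% interval of the limma fit. Filled points passed the adjusted p and the fold threshold: 8 genes in each comparison of Ad-Cre with Ad-LacZ and 0 in each comparison of the inhibitor.

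Creld2 changed more than any isomerase. It was at 51.7, 55.3, 48.4 and 55.4 RPKM in the Ad-LacZ libraries of F1, M1, M2 and F2, a narrow range, and at 496, 508, 658 and 1018 RPKM in Ad-Cre. The fold change was 12.0 (log2 3.58, standard error 0.20, adjusted p = 7.92e-05). From rank 735 among all genes in Ad-LacZ it moved to rank 32 in Ad-Cre, beside Pdia3 at rank 19, Pdia4 at rank 20 and P4hb at rank 21. The 4 ranges of these genes overlapped along that order in Ad-Cre, whereas in Ad-LacZ Pdia4 and Creld2 lay below the range of P4hb.

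Promoters of the 10 genes were read from RefSeq (GRCm38.p6, 250 bases before to 50 after each start) because the 8 genes moved together and the 2 oxidases did not. All 10 genes had at least 1 promoter in this set. They were searched on both strands for the ER stress response element (ERSE: CCAAT, 9 bases, CCACG), the sequence bound by ATF6 together with the CCAAT factor NF-Y, and for TGACGTGG, a site of ATF6 and XBP1. The exact ERSE was present in 3 of the 10 genes, Creld2, Pdia6 and Ero1lb, and in 0.137% of the 27025 genes with a promoter in the set. Each CCAAT inside an ERSE is also a CCAAT match, and CCAAT by itself was found in 7 of the 10 genes and in 41.1% of all genes. The stretches that hold the element are shown 5′ to 3′ along the gene, with its 10 fixed letters in capitals. In Creld2 and Ero1lb the element lies on the opposite strand and therefore reads CGTGG, 9 bases, ATTGG.
Creld2, chr15:88819484-88819573, plus strand: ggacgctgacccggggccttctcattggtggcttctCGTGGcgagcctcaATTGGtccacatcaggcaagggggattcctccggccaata
Pdia6, chr12:17266455-17266544, plus strand: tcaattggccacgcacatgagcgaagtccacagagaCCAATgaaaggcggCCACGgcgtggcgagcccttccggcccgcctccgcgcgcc
Ero1lb, chr13:12565646-12565735, plus strand: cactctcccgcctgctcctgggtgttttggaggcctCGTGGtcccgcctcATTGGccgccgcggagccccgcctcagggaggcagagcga
The element spans bases 126 to 108 before the start of Creld2, 98 to 80 before that of Pdia6 and 201 to 183 before that of Ero1lb. Creld2 and Pdia6 were called higher in Ad-Cre, while Ero1lb had lower values there and was called lower in some of the fits only. Whether the element was in use was not tested.

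With 1 of the 10 fixed letters changed, an ERSE-like stretch was also found in Pdia4, the isomerase with the largest rise, and in Pdia3. An exact or once-changed ERSE was present in 1.72% of all genes. The stretch of Pdia4 is shown in the same way, with the 10 positions in capitals, of which 1 departs from the element.
Pdia4, chr6:47813567-47813656, minus strand: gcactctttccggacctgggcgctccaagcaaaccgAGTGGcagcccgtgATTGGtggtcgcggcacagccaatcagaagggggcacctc
The sequence TGACGTGG was found before Txndc11 and before an alternative start of Txndc5, and in 0.714% of all genes, and it is in capitals in the lines that follow.
Txndc11, chr16:11134616-11134645, minus strand: tgaagtgtggcTGACGTGGagagtccgggt
Txndc5, chr13:38528034-38528063, minus strand: ggcctcgccgcTGACGTGGcgctagccgcc
P4hb, Pdia5 and Ero1l held none of these letters beyond a CCAAT in P4hb. This says nothing about sites outside the window.

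The oxidases went another way. Ero1lb was at 318, 290.5, 219.5 and 219 RPKM in the Ad-LacZ libraries of F1, M1, M2 and F2 and at 181, 173, 84.4 and 120.5 RPKM in the Ad-Cre libraries. The log2 difference within a preparation was -0.73, -0.71, -1.41 and -0.94, below 0 in each of the 4, and every Ad-Cre value lay below every Ad-LacZ value as deposited, although the scaled ranges overlapped. The fit without pairing gave a log2 fold change of -0.95 (standard error 0.32, adjusted p = 0.0771), which did not pass. With the preparation as a block the adjusted p was 0.00279 and Ero1lb was called lower, as were 5.5% of the genes tested. The call was also gained with values as deposited (adjusted p = 0.0324) and under quantile normalization (adjusted p = 0.0115). Over all alternatives its adjusted p ranged from 0.00279 to 0.234. An exact permutation test, which does not use the pairing, gave p = 0.0571 (two-sided).

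Ero1l, in contrast, had no common direction. It was at 52.2, 53.7, 48.6 and 46.5 RPKM in the Ad-LacZ libraries, and at 33.6, 49.9, 52.9 and 61.5 RPKM in the Ad-Cre libraries of F1, M1, M2 and F2. The log2 difference was -0.54 in F1 and 0.32 in F2, with M1 and M2 between them. The coefficient of variation between preparations went from 6.54% to 23.6%. The fitted log2 fold change was -0.05 (95% interval -0.41 to 0.30, adjusted p = 0.843). It was 0.11 when F1 was left out, whose Ad-Cre library was the shallowest of its group at an estimated 14300000 reads.

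Markers of β cells had lower values beside Ero1lb. Of 7 β cell markers 0 were called and 7 had fold changes below 0, with a median log2 fold change of -0.77. Of all genes tested, 49.5% had fold changes above 0. At an unadjusted p below 0.05 with the fold threshold 3 of the markers passed, against 10.3% of genes in either direction. With the preparation as a block 4 were called lower, against 5.5% of genes. With values as deposited Mafa was called lower (adjusted p = 0.0383), where 1000 of 11590 genes were called in either direction. Quantile normalization called Mafa, Nkx6-1 and Slc2a2 lower (adjusted p = 0.0172, 0.0355 and 0.0392), with 990 of 11590 genes called in either direction. Insulin transcripts, summed over Ins1 and Ins2, were at 46792 to 77162 RPKM in Ad-LacZ and at 30817 to 79367 in Ad-Cre. Per 1000 RPKM of insulin, Ero1lb was at 4.12, 4.02, 4.69 and 3.87 in the Ad-LacZ libraries and at 2.28, 2.58, 2.74 and 2.74 in the Ad-Cre libraries. The ratio, chosen after the values were seen, left no overlap between the groups. Ins1 and Ins2 had fitted log2 fold changes of -0.37 and -0.17, and Iapp -0.29. Those of Mafa, Slc2a2, Pdx1 and Nkx6-1 were -1.66, -1.27, -0.80 and -0.77, beside -0.95 for Ero1lb. The ratio to insulin therefore does not speak for the β cell markers as a set. Their part in the level of Ero1lb was not tested. Of the other cell type markers, all 4 of alpha cells, all 3 of delta and PP cells and all 5 of endothelial cells could be tested, but only 1 of 8 acinar, 2 of 5 duct and 1 of 4 B and plasma cell markers. None of those tested was called between Ad-Cre and Ad-LacZ, and 0 passed at an unadjusted p with the fold threshold. The B and plasma cell markers summed to 0.687 to 1.58 RPKM in Ad-LacZ and to 0.537, 0.983, 11.3 and 8.43 RPKM in the Ad-Cre libraries of F1, M1, M2 and F2, and their part in the result was not tested.

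Ratios taken within a library do not depend on the scaling between libraries, and they describe how the balance of the pathway differed. The summed RPKM of the 7 isomerases was 3.20, 3.67, 3.77 and 4.11 times that of Ero1l and Ero1lb in the Ad-LacZ libraries of F1, M1, M2 and F2. In the Ad-Cre libraries it was 13.9, 12.9, 22.6 and 22.3 times. The means were 3.68 ± 0.377 and 17.9 ± 5.22 (SD, n = 4 each), and the groups were far from overlapping. The ratio combines genes whose levels are given above, so this gap restates them and is no separate test. M2 and F2 stood above F1 and M1 within Ad-Cre. The 10 genes together made up 0.445% to 0.526% of all RPKM in Ad-LacZ and 1.02% to 1.68% in Ad-Cre. The ratio of Ero1lb to Ero1l, 4.51 to 6.09 in the controls, was 5.39, 3.47, 1.59 and 1.96 in Ad-Cre, with M1, M2 and F2 below the range of the controls and F1 within it.

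**Figure D3:**
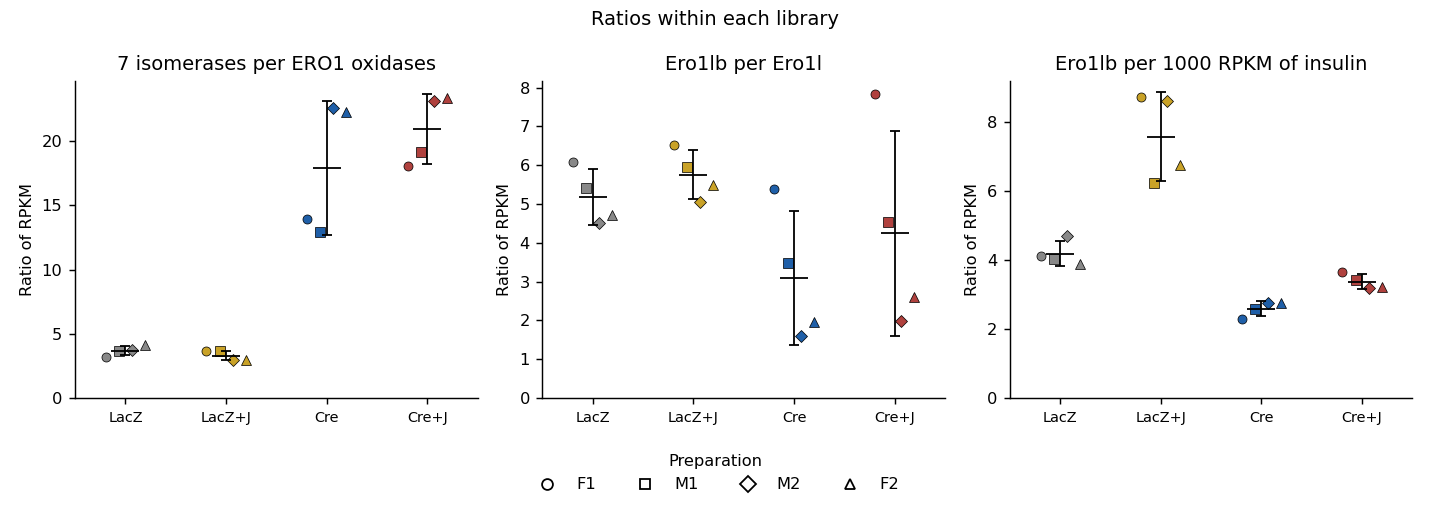
Ratios of RPKM within each of the 16 libraries: the 7 isomerases summed over Ero1l plus Ero1lb, Ero1lb over Ero1l, and Ero1lb per 1000 RPKM of Ins1 plus Ins2. Symbols are libraries, bars mean and SD (n = 4); the isomerase-to-oxidase ratio is 2.96 to 4.11 in the 8 Ad-LacZ libraries with or without inhibitor and 12.9 to 23.4 in the 8 Ad-Cre libraries.

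The make-up of the isomerase transcripts also differed. Pdia4 made up 9.11% to 9.83% of the summed isomerase RPKM in Ad-LacZ and 22.8% to 32.3% in Ad-Cre. Pdia3 went from 36.6% to 38.3% down to 26.1% to 30.2%, while Pdia6 kept overlapping shares of 12.8% to 14.6% and 12.8% to 14.2%. P4hb held 32.1% to 33.1% in the controls. Its shares in Ad-Cre were 33.1%, 28.3%, 22.5% and 22.3%, taking the preparations in the same order. The Pdia4 share ran the other way, at 22.8%, 23.9%, 30.9% and 32.3%. Pdia4 exceeded P4hb in M2 and F2 of Ad-Cre, with ratios of 1.37 and 1.45, and not in F1 and M1, with ratios of 0.689 and 0.846.

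**Figure D4:**
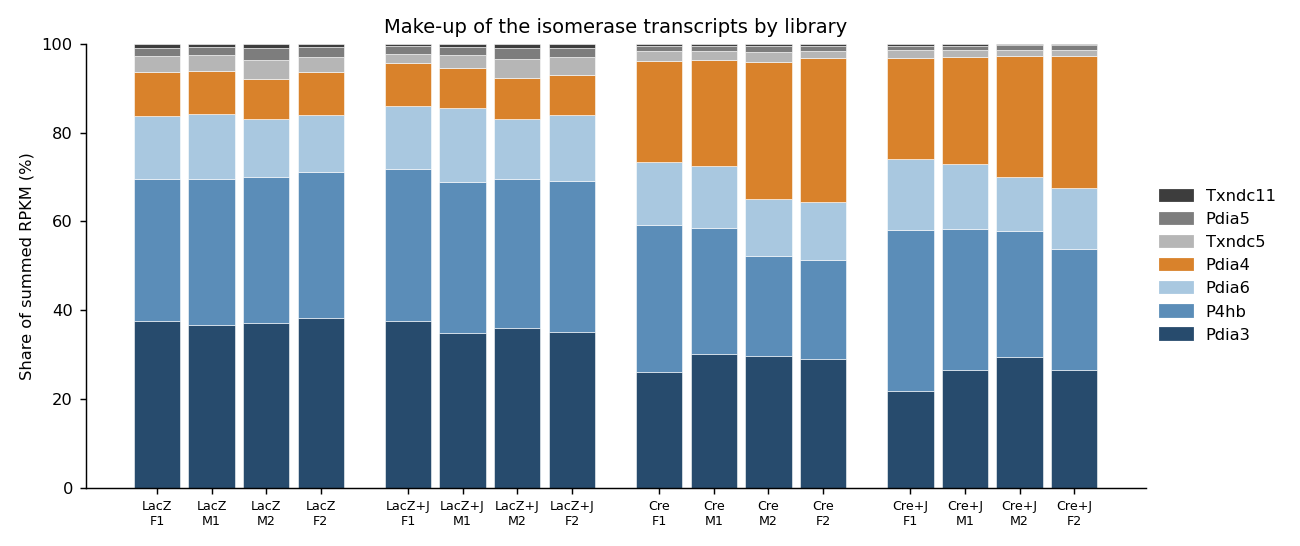
Share of the summed RPKM of the 7 isomerases held by each gene, 1 bar per library in the 4 groups (J is the JNK inhibitor). Pdia4 holds 8.94% to 9.83% in the 8 Ad-LacZ libraries and 22.8% to 32.3% in the 8 Ad-Cre libraries, with the largest shares in M2 and F2.

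In the presence of JNK-IN-8, Ad-Cre was compared with Ad-LacZ in 8 other libraries from the same 4 preparations. The isomerases and Creld2 were higher there too. Again 8 of the 10 genes were called higher, against 7.88% of the 11598 genes tested, and 0 were called lower, against 6.7%. The groups of these 8 genes did not overlap, as for 11.6% of genes. The median log2 fold change of the 10 was 1.2, beside -0.03 over the genes tested.

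Creld2 was at 73.5, 68.7, 41.9 and 50.8 RPKM in Ad-LacZ + JNK inhibitor and at 899.6, 919.8, 803 and 1277 RPKM in Ad-Cre + JNK inhibitor, a log2 fold change of 4.17 (standard error 0.27, adjusted p = 6.80e-05). Pdia4 went from 142, 126, 85.7 and 89.7 RPKM to 977, 1026, 959 and 1434 RPKM, a log2 fold change of 3.44 (standard error 0.27, adjusted p = 0.000176). P4hb went from 504, 478, 317 and 342 RPKM to 1550, 1349, 1003 and 1320.5 RPKM, a log2 fold change of 1.81 (standard error 0.28, adjusted p = 0.00329). P4hb thereby had the highest mean of the 10 genes in Ad-Cre + JNK inhibitor, 1306 ± 226 RPKM (SD, n = 4), though its range overlapped those of Pdia4 and Pdia3. The log2 fold changes of the other isomerases were 1.88 for Pdia6, 1.48 for Pdia3, 0.92 for Pdia5, 0.89 for Txndc5 and 0.69 for Txndc11, with adjusted p between 0.00373 and 0.0237.

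The oxidases repeated their separate behaviour. Ero1lb was at 352, 332, 265 and 287 RPKM in Ad-LacZ + JNK inhibitor and at 209, 181, 101 and 149.5 RPKM in Ad-Cre + JNK inhibitor, lower in each preparation. The fit gave -0.85 on the log2 scale (standard error 0.28, adjusted p = 0.061). Blocking by preparation brought the adjusted p to 0.00677, a call made for 7.33% of genes in this direction. It was likewise called with values as deposited (adjusted p = 0.0134), under quantile normalization (adjusted p = 0.00183) and without M2 (adjusted p = 0.0491). Its adjusted p over all alternatives ran from 0.00183 to 0.200, and the exact permutation test, again without pairing, gave p = 0.0571 (two-sided). Ero1l was at 54.0, 55.7, 52.6 and 52.4 RPKM and then at 26.7, 39.9, 50.8 and 57.4 RPKM in F1, M1, M2 and F2. F1 was again the lowest and F2 the highest, and the fitted log2 fold change was -0.21 (95% interval -0.69 to 0.26, adjusted p = 0.501). The summed isomerases were 2.96 to 3.63 times the oxidases in Ad-LacZ + JNK inhibitor and 18.1 to 23.4 times in Ad-Cre + JNK inhibitor.

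Leaving out a preparation moved the count of genes called to 2 without F2 (Creld2 and Pdia4) and to 5 without M1, while all 8 kept their direction. Without the single Ad-Cre + JNK inhibitor library of F2, 7 of the 10 were called higher, the exception being Txndc11, which also lost its call with values as deposited. Fibroblast markers moved the other way here, with summed levels of 43.6 to 507 RPKM in Ad-LacZ + JNK inhibitor and 25.6 to 145 in Ad-Cre + JNK inhibitor (0 of 5 tested called, and 4 of 5 called lower with the preparation as a block). Macrophage markers summed to 151 to 330.4 and 187 to 325 RPKM, with 0 of 6 called. Of the β cell markers 2 of 7 were called lower, against 6.7% of the genes tested, and 4 with the block, against 7.33%. Ppy, the hormone of PP cells, was called higher (log2 fold change 0.92) and the duct marker Spp1 lower (-1.29), each 1 among the 3 delta and PP and the 2 duct markers tested. With the block 2 of those 3 and the 1 acinar marker tested were called higher, against 8.65% of the genes tested. The part of these markers in the result was not tested.

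Within Ad-Cre, the fitted log2 differences between cells with and without the inhibitor ran from -0.04 for Ero1l to 0.78 for P4hb. On the scaled values, 7 of the 10 genes were higher with the inhibitor in each of the 4 preparations, the exceptions being Txndc5, Txndc11 and Ero1l. As deposited, Pdia5 in M2 went the other way, from 42.0 RPKM in Ad-Cre to 36.9 with the inhibitor. The share of all genes with such a pattern was not computed. The threshold for this comparison was an adjusted p below 0.05 and a fold above 1.2, which 0 of the 10 genes passed, against 0.0174% of the 11503 genes tested. At an unadjusted p below 0.05 with the same fold, 3 of the 10 were called higher, against 5.49% of genes. Blocking by preparation made these 3 genes pass on the adjusted p as well, against 4.66% of genes called higher.

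P4hb was at 987, 813, 697 and 903 RPKM in Ad-Cre and 1550, 1349, 1003 and 1320.5 RPKM with the inhibitor. The log2 difference within a preparation was 0.75, 0.84, 0.83 and 0.68, and the fitted value was 0.78 (standard error 0.24, adjusted p = 0.411, block 0.0163). Creld2 had differences of 0.96, 0.96, 0.59 and 0.46, with a fitted value of 0.74 (adjusted p = 0.424, and 0.0257 with the block). Pdia6 had differences of 0.79, 0.73, 0.39 and 0.45, with a fitted value of 0.59 (adjusted p = 0.530, and 0.0278 with the block). These sizes depended on the scaling: quantile normalization gave 0.19 for P4hb and 0.26 for Creld2 and Pdia6, and turned Pdia3 and Pdia4 to -0.16 and -0.06 from 0.39 and 0.47. Values as deposited gave 0.61, 0.58 and 0.43 for P4hb, Creld2 and Pdia6, where the median over all genes was itself -0.14.

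Within-library ratios gave a further view of the inhibitor. Creld2 stood at 0.687 to 0.777 times Pdia4 in Ad-Cre and at 0.837 to 0.921 times in Ad-Cre + JNK inhibitor, with no overlap. The ratio of Pdia4 to P4hb was lower with the inhibitor in each preparation, going from 0.689, 0.846, 1.37 and 1.45 to 0.630, 0.760, 0.956 and 1.09 in F1, M1, M2 and F2, although the groups overlapped. Ero1lb per 1000 RPKM of insulin was 2.28 to 2.74 without and 3.18 to 3.65 with the inhibitor, and in the Ad-LacZ libraries 3.87 to 4.69 without and 6.21 to 8.72 with it. The insulin sum below this ratio also differed, at 30817 to 79367 RPKM in Ad-Cre and 31753 to 57303 in Ad-Cre + JNK inhibitor, and at 46792 to 77162 RPKM in Ad-LacZ and 30795 to 53362 in Ad-LacZ + JNK inhibitor. In the Ad-LacZ cells the mean of that sum was 63239 RPKM without and 41778 with the inhibitor, so the denominator of the higher ratio was lower there. The ratios were chosen after the values were seen. Ero1lb itself was not called in either inhibitor comparison, with log2 fold changes of 0.37 in Ad-Cre and 0.25 in Ad-LacZ. It was nevertheless higher with the inhibitor in each preparation. The log2 differences in F1, M1, M2 and F2 were 0.31, 0.17, 0.56 and 0.44 in Ad-Cre. In Ad-LacZ they were 0.27, 0.19, 0.27 and 0.26. With the preparation as a block limma's adjusted p was 0.0585 in Ad-Cre and 0.240 in Ad-LacZ.

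In the Ad-LacZ cells 0 of the 10 genes were called with the inhibitor, against 0.197% of the 11657 genes tested, and 0 passed at an unadjusted p, against 4.84% of genes. The fitted log2 values ran from -0.14 for Txndc5 (95% interval -0.38 to 0.10) to 0.25 for Ero1lb (95% interval -0.28 to 0.78). Creld2, P4hb, Pdia3, Pdia4 and Pdia5 had higher values with the inhibitor in F1 and M1 and lower ones in M2 and F2. Pdia6 had the same split on the scaled values but not as deposited. The macrophage markers were at 77.1 to 86.2 RPKM without and 151 to 330.4 RPKM with the inhibitor in these libraries (3 of 6 called higher, and 1 with the block, against 0.266% of genes). The B and plasma cell markers summed to 0.537, 0.690, 23.8 and 47.5 RPKM with the inhibitor in F1, M1, M2 and F2. For both kinds of marker, their part in these values was not tested.

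Whether the virus acted differently with and without the inhibitor was tested by their interaction over the 16 libraries. By limma's adjusted p 0 of the 10 genes passed, as did 0% of the 12274 genes tested. At an unadjusted p below 0.05, without pairing, none of the 10 passed either, against 3.13% of genes. The largest interaction was that of P4hb, 0.64 on the log2 scale (95% interval -0.12 to 1.40, unadjusted p = 0.095). It was above 0 in each preparation. With the preparation as a block, limma gave P4hb an unadjusted p of 0.00248 and an adjusted p of 0.198. The share of all genes passing by the unadjusted block p was not computed. Creld2 had 0.60 (95% interval -0.14 to 1.35).

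The other genes of the pathway went in mixed directions. Of 16 other ER thiol oxidoreductases, 11 passed the low filter and 2 were called higher in Ad-Cre. Erp29, a family member without a catalytic cysteine pair, was at 9.39 ± 0.538 RPKM in Ad-LacZ and 16.9 ± 2.37 in Ad-Cre (SD, n = 4 each), 0.78 on the log2 scale (adjusted p = 0.00485). Creld1, the paralog of Creld2, had means of 9.61 ± 0.974 in Ad-LacZ and 15.7 ± 1.5 RPKM in Ad-Cre (SD, n = 4 each). This is 0.65 on the log2 scale (adjusted p = 0.00686), beside 3.58 for Creld2. The other 9 were not called and included Tmx1 (log2 fold change -0.11), Dnajc10 (0.09), Erp44, which retains ERO1 in the early secretory pathway (-0.21), and Tmx4 (-0.57, adjusted p = 0.0225, a fold below 1.5). The median of the 11 was -0.11. Under the inhibitor 3 were called higher (Erp29, Tmx2 and Txndc15) and Tmx4 was called lower, at -0.78 (adjusted p = 0.00292). Tmx2 and Txndc15 lost the call with the values as deposited, and Tmx2 also under quantile normalization.

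None of the 7 other oxidases and peroxide or quinone partners passed in either virus comparison. Prdx4, the peroxiredoxin that uses ERO1-derived peroxide, had 9.60 ± 1.31 RPKM in Ad-LacZ and 12.7 ± 3.26 in Ad-Cre (SD, n = 4 each; log2 fold change 0.34, adjusted p = 0.166). Qsox1, a sulfhydryl oxidase of the secretory pathway, had a log2 fold change of 0.29 (adjusted p = 0.210). Neither passed at an unadjusted p with the fold threshold, and with the block 0 of the 7 passed without the inhibitor and 1, Vkorc1, under it.

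Partners of the isomerases differed among themselves. Calr, the calreticulin lectin that recruits Pdia3, was at 279 ± 34.8 RPKM in Ad-LacZ and 819.5 ± 107 in Ad-Cre (SD, n = 4 each), 1.55 on the log2 scale (adjusted p = 0.00205). Ppib, a prolyl isomerase, was at 14.6 ± 0.648 and 29.3 ± 8.33 RPKM (SD, n = 4 each), 0.92 on the log2 scale (adjusted p = 0.00665). Mttp, which pairs with P4hb in the triglyceride transfer complex, was lower, at 5.48 ± 0.407 and 2.91 ± 0.180 RPKM (SD, n = 4 each; log2 fold change -0.72, adjusted p = 0.00826). P4ha1 and P4ha2, the catalytic partners of P4hb in prolyl hydroxylation, had log2 fold changes of 0.31 and 0.52 and were not called, P4ha2 (adjusted p = 0.0119) because of its fold. So of 6 partners tested 2 were called higher and 1 lower, with a median of 0.49. Of 6 ER selenoproteins 1 was called higher, Selenok (log2 fold change 0.94, adjusted p = 0.00562), with a median of 0.39. Of 8 disulfide-bonded cargo genes, among them Ins1 and Ins2, 0 were called and the median was -0.29. At an unadjusted p with the fold threshold 1, Pcsk1, was lower. Pcsk1 was called lower with values as deposited (adjusted p = 0.0324) and under quantile normalization (adjusted p = 0.0154). Quantile normalization also called Pcsk2 lower (adjusted p = 0.0195). The 6 chaperones set beside the 10 genes (Hspa5, Hsp90b1, Hyou1, Sdf2l1, Dnajb11 and Manf) were called higher in both virus comparisons, with medians of 1.61 and 2.01. Under the inhibitor, 3 of 7 partners (Calr, Ppib and P4ha2) were called higher and Mttp lower, while of the selenoproteins Selenok and Selenos were called higher and Selenot and Selenon lower. With the preparation as a block, Selenom was also called higher and Pcsk1 lower in both virus comparisons, and under the inhibitor Tmx3 was called lower too and Selenon was not. In the comparisons of the inhibitor within a virus, 0 members of these lists were called. At an unadjusted p with the fold threshold, higher values within Ad-Cre were found for 1 of 11 other thiol oxidoreductases, 1 of 7 other oxidases and their peroxide or quinone partners, 2 of 7 isomerase partners, 3 of 6 selenoproteins, 1 of 8 cargo genes and 2 of 6 chaperones. The share over all genes tested was 5.49%. The block called 2, 1, 1, 3, 2 and 1 of these lists higher, in the same order, against 4.66% of all genes. Within Ad-LacZ 1 isomerase partner, 1 selenoprotein and 1 cargo gene were higher at an unadjusted p, against 2.69% of all genes. There the block called 1 cargo gene, Pcsk1, against 0.266% of genes called higher.

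Likeness between genes was measured as Pearson's r of log2 values over the 16 libraries, which share 4 preparations and fall apart by virus for most of these genes, so r serves as a description. Among the 8 genes that rose, r between pairs was 0.871 to 0.998. Against the mean of the other 9 genes r was -0.20 for Ero1l and -0.52 for Ero1lb. Outside the 10 genes, the profiles most like their mean were those of Dnajb11 (r = 0.995), Manf (r = 0.993) and Hspa5 (r = 0.992), among 12274 genes.

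Each oxidase had different neighbours. The profiles most like Ero1lb were Bace2, an aspartyl protease of β cells (r = 0.990), Hadh, a mitochondrial fatty acid dehydrogenase (r = 0.972), and Slc7a14, a transporter family member (r = 0.967). Bace2 was at 170.5, 160.5, 122 and 128 RPKM in Ad-LacZ and 103, 92.0, 43.9 and 62.1 RPKM in Ad-Cre, so M2 was lowest in both groups, as for Ero1lb in Ad-Cre. The profiles most like Ero1l were Tm9sf3 (r = 0.896), Suco (r = 0.889) and Arhgap12 (r = 0.882). Tm9sf3 was at 84.1, 81.6, 85.6 and 80.9 RPKM in Ad-LacZ and at 52.6, 85.9, 91.7 and 93.9 RPKM in Ad-Cre, where F1 stood apart as the lowest library.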

How the data were processed

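The 10 genes and all gene and marker lists were chosen with earlier results of these data known. The authors deposited a table of RPKM values (reads per kilobase of gene, scaled to the reads of the library) for 25105 genes in 16 libraries, made from paired-end reads of poly(A) RNA aligned to the mouse genome (GRCm38 per the labels). The step from counts to RPKM and the annotation are not given in the sources used here. A further 3 columns matched no sample and were not used. Counts were not used, and the depth was inferred from the smallest increments among low values.

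RPKM was scaled by trimmed mean of M-values (TMM, trimming 30% of ratios and 5% of levels), and log2(scaled RPKM + 1) was tested in R 4.3.3 with limma 3.58.1 (eBayes with trend) on the 8 libraries of each comparison, or on all 16 for the interaction. Genes above 1 RPKM in at least 4 libraries were tested, and p-values were adjusted over all of them by Benjamini-Hochberg. Fold changes are on this log2 scale, which understates those of low genes. A call needed an adjusted p below 0.05 and a fold above 1.5 between viruses or 1.2 for the inhibitor, and an adjusted p below 0.05 for the interaction. Exact two-sided permutation tests of single genes did not use the pairing and cannot go below p = 0.0286 with 4 libraries against 4. Cultures of a group came from separate preparations. Libraries with the same preparation label deviated together: in each of the 4 comparisons every same-preparation correlation of deviations was above 0.1 (0.131 to 0.826 over all pairs), so the labels pair the libraries. The blocked fit is given where it changes calls of the 10 genes or of the pathway lists, and of markers between viruses.

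Named were the 10 genes, members of the lists, and the 3 genes with the most similar profile to the mean of the 10 and to each gene whose correlation with the others was below 0.5. Promoters came from RefSeq, where Ero1l and Ero1lb were matched through the synonyms Ero1a and Ero1b. Scripts were tested on simulated data. Alternatives were a pseudocount of 0.1, no filter or one at 0.1 RPKM, values as deposited, quantile normalization, the block, a joint fit of 16 libraries, eBayes without trend, and leaving out each preparation or the Ad-Cre + JNK inhibitor library of F2. Figures were drawn with Python 3.11.15 and matplotlib 3.10.9.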

Additional observations from a re-analysis of the deposited data

Results flagged for a closer look

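Each of the 10 genes was examined in each of the 4 groups for a library whose gap to its nearest neighbour exceeded the 95% critical value of Dixon's test as a share of the range, over 40 sets of 4 libraries. Chance alone flags about 1 set in 20, and 3 were found. Pdia4 in the Ad-Cre + JNK inhibitor library of F2 was at 1434 RPKM, above the 959 to 1026 RPKM of the other preparations, with a gap of 0.860 of the range. This library is the shallowest by the depth estimate and the one whose column name has another prefix and lane code. Txndc5 in the Ad-LacZ library of F2 was at 36.2 RPKM, below the other 3 at 43.0 to 43.6 RPKM, with a gap of 0.915. Txndc11 in the Ad-Cre + JNK inhibitor library of M2 was at 9.63 RPKM, below the others at 14.6 to 15.5 RPKM, with a gap of 0.844, and close to the 7.95 to 9.56 RPKM of the Ad-LacZ + JNK inhibitor libraries.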

How the results depend on the processing

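Over the alternatives and 5 comparisons, 559 of the fold changes of single genes kept direction and call, 24 lost a call, 10 gained one and 27 changed sign; of the counts of genes called, 58 stayed within 1.5 times and 4 did not. The 8 genes that rose stayed above 0 under each alternative in both virus comparisons. Leaving out preparations, the count ranged from 3 to 8 in Ad-Cre against Ad-LacZ (3 without F2) and from 2 to 9 under the inhibitor (2 without F2, 5 without M1). Fewer libraries entered these fits. With the preparation as a block, which the pairing of the libraries allows, 3 genes were called for the inhibitor within Ad-Cre in place of 0, and Ero1lb was called lower in both virus comparisons. The block changed no other call of the 10 genes.

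All sign changes concerned values that were not called. Between Ad-Cre with and without inhibitor, values as deposited gave -0.064 for Txndc5 and -0.047 for Txndc11, and quantile normalization -0.16 for Pdia3, -0.060 for Pdia4 and -0.11 for Txndc5. For the inhibitor in Ad-LacZ, quantile normalization gave -0.0063 for P4hb and -0.079 for Pdia3, and the joint fit 0.0088 for Pdia4 and 0.0011 for Pdia5. For the interaction, values as deposited gave -0.023 for Txndc11 and -0.039 for Ero1lb, and quantile normalization -0.089 for Pdia3, -0.017 for Pdia4 and -0.093 for Ero1lb. Without a preparation, Ero1l ranged from -0.18 to 0.11 in Ad-Cre against Ad-LacZ, from -0.38 to 0.049 under the inhibitor and from -0.15 to 0.017 between the Ad-Cre groups (the lowest without the single Ad-Cre + JNK inhibitor library of F2). For the inhibitor in Ad-LacZ the ranges were -0.023 to 0.23 for P4hb, -0.14 to 0.14 for Pdia3, -0.14 to 0.12 for Pdia4, -0.10 to 0.11 for Pdia5, -0.066 to 0.031 for Txndc11 and -0.049 to 0.25 for Creld2. The median over all genes moved by more than 0.1 with values as deposited, to -0.14 under the inhibitor and between the Ad-Cre groups and to -0.12 for the interaction. Depth left about 997 reads or more behind each value of the 10 genes.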
